A study of Bos taurus with 8 samples.

Results

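MT2 is a metallothionein gene, carried in the count table under the Ensembl identifier ENSBTAG00000023659, and it was followed in bovine choroidal endothelial (BCE) and bovine aortic endothelial (BAE) cells treated with leukemia inhibitory factor (LIF) or vehicle. It is 1 of the 25889 rows of that table. It was chosen by its counts in the 4 BCE libraries, since it was taken from the list of genes that the authors called in BCE cells given LIF. Its LIF effect in BCE cells is therefore a description, without a test. Its name rests on a sequence match. The best Swiss-Prot match of the identifier was sheep metallothionein-2, with an E-value of 3.98e-06, which was the weakest of the 111 matches in the list. The other 110 had E-values under 1e-20. RefSeq places 6 bovine metallothionein genes next to each other on chromosome 18, in the order MT1A, LOC768319, LOC613358, MT2A, MT3 and MT4, with MT2 as a synonym of MT2A (assembly ARS-UCD2.0). The same alias is also given there to MTNR1B, a melatonin receptor gene on chromosome 29. The tables used here pair none of these RefSeq genes with an Ensembl identifier, so which gene of the cluster the row stands for was not settled. How reads that align to several genes were counted was not stated, and reads of near-identical metallothionein copies could have been split, dropped or merged in these values.

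Metallothioneins are small proteins rich in cysteine that bind zinc and copper, and cadmium where cells meet it, in clusters of metal and thiolate. Their genes respond to metals through the zinc-sensing factor MTF1, to glucocorticoids and, in the acute phase response, to cytokines of the interleukin-6 family, to which LIF belongs. LIF binds its receptor LIFR together with gp130 and acts through JAK kinases and STAT3. In endothelium, metallothionein is known as a zinc store that releases the metal when nitric oxide or oxidants reach its thiols.

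RNA was sequenced from 4 groups of 2 libraries, described by the methods as biological replicates. Cells were kept for 3 h in an assay medium with 10% bovine calf serum (BCE cells) or 1% serum (BAE cells) and then received LIF at 10 ng/ml or vehicle (albumin in PBS) for 6 h. Serum therefore changed with the cell type, and a difference between BCE and BAE cells cannot be told apart from a difference in serum. BCE cells had also been maintained with bFGF and VEGF and BAE cells without, and the BAE cells came from 1 commercial lot. Library totals ranged from 18600598 to 35269335 counts, and 15236 to 15768 genes were detected per library. Names could be paired with 111 identifiers only, all from the list of genes that the authors called in BCE cells given LIF. A gene outside that list had no name here. None of the 12 endothelial markers and none of the 32 markers of mural cells, fibroblasts, leukocytes and pigmented cells was among the 111, so the labelled cell type was not checked here. In bulk RNA, fewer cells with MT2 and less MT2 RNA per cell cannot be told apart.

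MT2 was read deeply in every library. In vehicle-treated BAE cells it had 22813 counts in replicate 1 and 11318 counts in replicate 2. In LIF-treated BAE cells it had 30839 and 39629 counts. In BCE cells the counts were 30371 and 24432 with vehicle and 43311 and 31887 with LIF. MT2 took 0.0506% of all counts in the lowest library, vehicle-treated BAE replicate 2 (95% Wilson interval 0.0497% to 0.0516%), and 0.172% in the highest, LIF-treated BCE replicate 1 (0.170% to 0.174%). These intervals cover counting error only. Relative to MT2's own count, counting error was between 0.481% and 0.940% per library.

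On the CPM scale (counts scaled to a common library size with TMM factors, which allow for differences in library composition), MT2 was lowest in vehicle-treated BAE cells, with 664 CPM in replicate 1 and 518 CPM in replicate 2, or 591 ± 103 CPM (SD, n = 2). Vehicle-treated BCE cells followed with 1021 and 1013 CPM, or 1017 ± 5.25 CPM (SD, n = 2). LIF-treated BAE cells had 1473 and 1539 CPM, or 1506 ± 46.6 CPM (SD, n = 2). LIF-treated BCE cells were highest, with 1678 and 1658 CPM, or 1668 ± 14.3 CPM (SD, n = 2). No neighbouring groups in this order overlapped. The gap between their nearest libraries was 349.5 CPM, then 452 CPM, and 119 CPM between LIF-treated BAE and LIF-treated BCE cells. LIF-treated BAE cells thus stood above vehicle-treated BCE cells, a pair that differs in both cell type and treatment and was not tested. Over all genes, both BCE libraries stood above both BAE ones for 38.3% with vehicle and 40.5% with LIF. No such share was obtained for LIF-treated BAE above vehicle-treated BCE cells, or for all 4 groups apart.

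**Figure D1:**
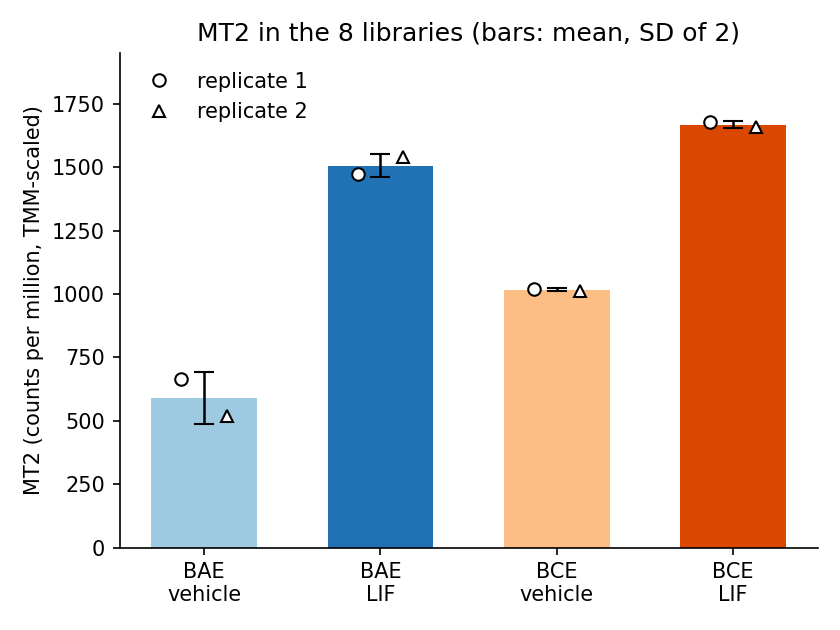
MT2 in CPM (TMM-scaled, linear axis from 0) in the 4 groups, with bars for the mean, error bars for the SD of 2 libraries and a symbol for each library. The groups do not overlap. Over all genes, both BCE libraries stood above both BAE ones for 38.3% with vehicle and 40.5% with LIF, and no share was obtained for all 4 groups apart. The 2 vehicle-treated BAE libraries, at 664 and 518 CPM, lie farther apart than the libraries of any other group.

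The vehicle-treated BAE libraries differed in MT2 more than those of the other groups. Replicate 1 lay above replicate 2 by 0.36 on the log2 scale, against a median absolute difference of 0.048 between these libraries over the 2014 genes with a mean of at least 100 CPM. Only 4 of the 2014 genes differed more between them. The MT2 difference between the libraries of a group was 0.063 in LIF-treated BAE cells, 0.011 in vehicle-treated BCE cells and 0.017 in LIF-treated BCE cells, where 754, 1839 and 1521 of the 2014 genes differed more. MT2 log2 fold changes, ranks and likeness of pattern that rest on the vehicle-treated BAE cells are therefore given with and without either library. Log2 fold changes of other named genes are given with all libraries only.

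MT2 rose after LIF in BAE cells. The BAE libraries are not in the contrast from which MT2 was taken, although results for them were known when it was picked for description. The log2 fold change was 1.38 (standard error, SE, 0.0797, adjusted p = 1.65e-09, edgeR quasi-likelihood test on all genes), a 2.60-fold increase and a gain of 915 CPM. The DESeq2 test gave 1.38 with a larger SE of 0.177, so the size of this SE depends on how the spread is estimated. Both LIF-treated libraries lay above both vehicle-treated ones. A rise past the threshold of 0.05 was seen for 13.6% of the 13034 genes tested in BAE cells, and both LIF-treated libraries stood above both vehicle-treated ones for 30.8%. With TMM, 61.4% of the called genes were higher after LIF, and 44.3% when libraries were scaled by their totals only, a setting under which MT2 still rose by 1.33. Among the 1774 genes that rose, 89 had a larger log2 fold change than MT2, and the median over all 1774 was 0.35. Without vehicle-treated replicate 2, the lower library, the log2 fold change was 1.21, a 2.32-fold increase and a gain of 842 CPM, and 129 of 1769 genes that rose had a larger one. Without replicate 1 it was 1.57, a 2.96-fold increase and a gain of 987 CPM, and 57 of 1393 had a larger one.

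Few abundantly read genes rose as much in BAE cells. Of the 2062 genes with a mean of at least 100 CPM in the BAE libraries, 5 had a larger log2 fold change than MT2. Among these 2062, 134 genes took at least as many reads as MT2, and 0 of the 134 had a larger absolute log2 fold change. The largest among the 134 was 0.89. Without vehicle-treated replicate 2, 11 of 2050 genes had a larger log2 fold change than MT2 and 0 of 97 genes with at least as many reads a larger absolute one. Without replicate 1 these counts were 3 of 2054 and 0 of 114. This ranking by reads does not allow for gene length, and it was made after the values were seen, without a test.

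**Figure D2:**
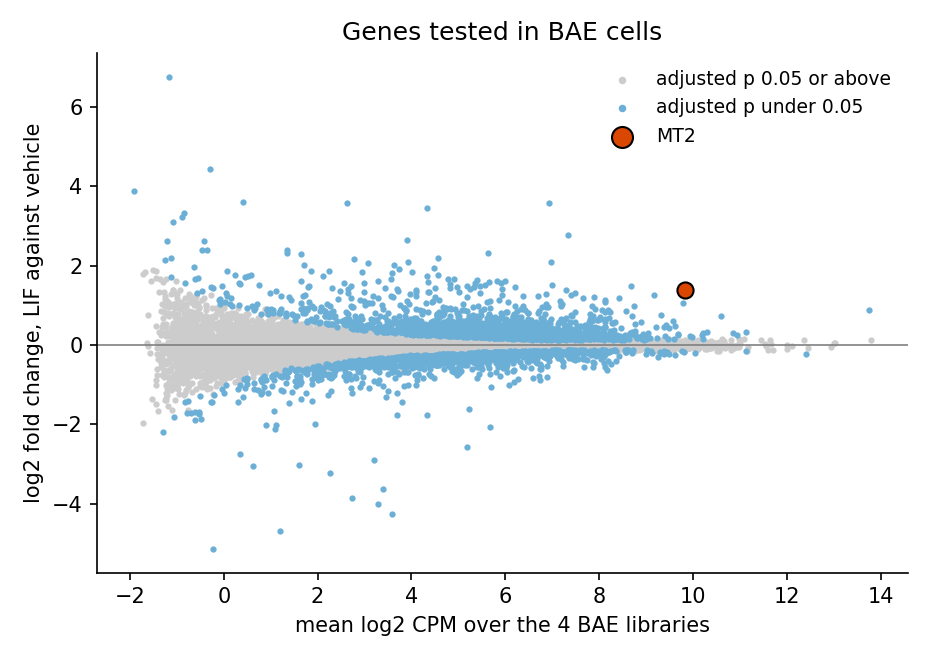
Log2 fold change after LIF against mean log2 CPM for the 13034 genes tested in BAE cells, 1 point per gene, with genes past an adjusted p of 0.05 in blue. MT2 (orange) lies at a mean of 9.83 and a log2 fold change of 1.38, above the genes of like or higher read number.

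In BCE cells MT2 was higher with LIF in both libraries, at 1678 and 1658 CPM against 1021 and 1013 CPM. The log2 fold change was 0.71 (SE 0.0395), a 1.64-fold difference and 651 CPM. This is the contrast from which MT2 was chosen, so nothing is read from its place among the 0.692% of 13014 genes that rose past the threshold, or from the 20.3% whose LIF-treated libraries both stood above the vehicle-treated ones. Leaving out each of the 4 libraries in turn gave values from 0.71 to 0.72.

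Between the cell types, MT2 was higher in BCE cells with vehicle and nearer with LIF. With vehicle the log2 fold change of BCE against BAE cells was 0.78 (SE 0.0933, adjusted p = 2.25e-05, edgeR), a 1.72-fold difference. The vehicle-treated BCE libraries also served to choose MT2, so this p-value is not independent of that choice. The DESeq2 test gave 0.78 with a larger SE of 0.175. Without vehicle-treated BAE replicate 2 it was 0.60, and without replicate 1 it was 0.96. A higher level in BCE cells passed the threshold for 26.2% of 13426 genes, and both BCE libraries stood above both BAE ones for 38.3%. The share of called genes that were higher in BCE cells was 48.7% with TMM and 59% with library totals only, where MT2 was higher by 0.86.

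With LIF in both cell types the difference was 0.15 (SE 0.0376, adjusted p = 0.00114, edgeR), a 1.11-fold higher level in BCE cells. This small difference rests on the estimate of the spread. With all 8 libraries in one fit, which takes in the wider vehicle-treated BAE pair, it was 0.15 (SE 0.0766, adjusted p = 0.112, edgeR) and no longer passed. Scaled by library totals only, it was 0.24, while the median of all genes moved by 0.095 in the same direction. A higher level in BCE cells passed the threshold for 31.7% of 13217 genes, both BCE libraries stood above both BAE ones for 40.5%, and the share of called genes that were higher in BCE cells was 49.6% with TMM and 60.8% with library totals only. Both comparisons between cell types use BCE libraries that also served to choose MT2, so neither p-value is independent of that choice. A gene chosen for a rise in LIF-treated BCE libraries may stand too high in them, which would enlarge the difference with LIF.

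The LIF effect on MT2 was smaller in BCE than in BAE cells by 0.63 on the log2 scale. The interaction over all 8 libraries was -0.63 (SE 0.109 in edgeR and 0.174 in DESeq2). The same number is the narrowing of the gap between the cell types from vehicle to LIF. It contains the BCE contrast that chose the gene and is given without a test. It was -0.47 without vehicle-treated BAE replicate 2 and -0.83 without replicate 1, the same direction in both cases.

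**Figure D3:**
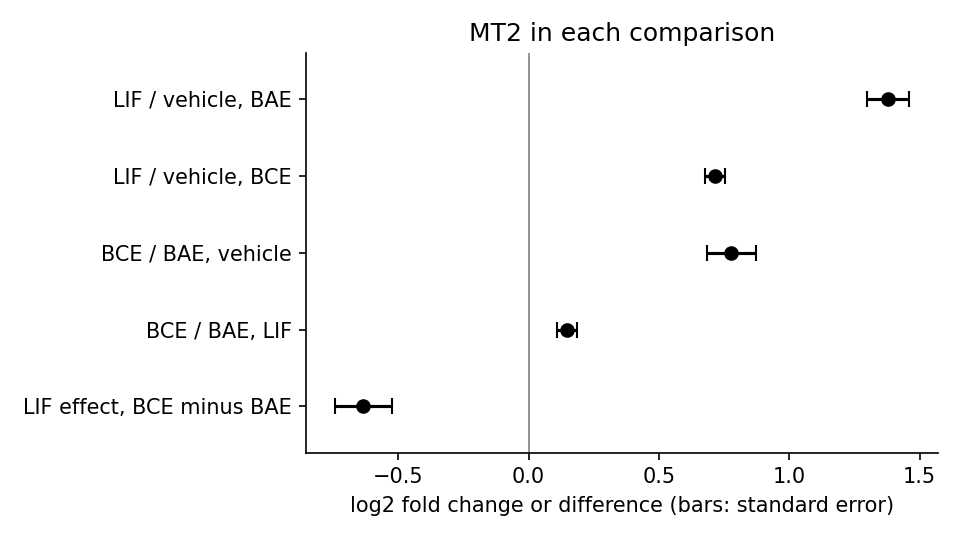
Log2 fold change of MT2 in the 4 comparisons and the difference of the LIF effects between cell types, as points with bars of 1 edgeR standard error. The DESeq2 standard error was larger for each point. LIF against vehicle is largest in BAE cells at 1.38, and the difference between BCE and BAE cells is 0.78 with vehicle and 0.15 with LIF.

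Genes of metal handling and of the LIF pathway were looked up by symbol among the 111 named identifiers, all called in BCE cells. Of the 15 symbols listed for metallothioneins, MT2 alone could be paired with an identifier. None could be paired of 25 zinc transporters and MTF1, 14 genes of copper handling, 15 of iron handling or 12 that respond to glucocorticoids, so the other metal-binding and metal-transporting genes are not described. Of 21 genes of the LIF receptor and STAT3 pathway, 8 had an identifier, and all 8 came from the same list of genes called in BCE cells as MT2. In BAE cells 7 of the 8 rose and 1 fell, against 13.6% and 8.55% of all genes tested. The median log2 fold change was 1.19 over the 8 and -0.004 over all genes. In BCE cells, where the 8 had been called, 7 also rose and 1 fell. All genes are therefore not a like background for the 8, and nothing about the pathway is read from these counts. The largest rises in BAE cells were those of CEBPD, a transcription factor of the acute phase response (3.57), SOCS3, the feedback inhibitor of gp130 signaling (3.45), and BCL3, a cofactor of NF-kB (2.32). SOCS2, a related inhibitor, fell by 0.75. With all libraries, the MT2 rise of 1.38 was smaller than these 3 and larger than those of OSMR (1.21), JUNB (1.17) and STAT3 (0.99). The MT2 rise was 1.21 without vehicle-treated BAE replicate 2 and 1.57 without replicate 1, settings in which the other genes were not compared. Its order against OSMR and JUNB is therefore given for all libraries only. Differences between genes were not tested. Among the 20 listed genes of the oxidative stress response, SOD2, the mitochondrial superoxide dismutase, was the 1 with an identifier. It rose in BAE cells by 0.36 (adjusted p = 0.0104 in edgeR), but not past the threshold in DESeq2 (adjusted p = 0.0557).

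The genes whose pattern over the 8 libraries was most like that of MT2 were sought by the root mean square difference of log2 CPM, with each gene centred on its own mean. MT2 itself varied around its mean by 0.60 on this measure, and the median difference from MT2 over 13645 other genes was 0.66. The 5 nearest of the 110 other genes with a name were ETS2 at 0.22, ICAM1 at 0.23, and STAT3, TMEM204 and ARRDC3 at 0.24 each. ETS2 is a transcription factor, ICAM1 an adhesion molecule for leukocytes, STAT3 the transcription factor downstream of the LIF receptor, TMEM204 a membrane protein of endothelial cells and ARRDC3 an arrestin-related protein. A further 7 genes without a name lay within the same distance, so the 5 are the nearest among named genes only, all of which were called in BCE cells. Each of the 5 had a larger log2 fold change after LIF in BAE than in BCE cells. The 5 were picked for likeness to MT2, which has this pattern, so it is no separate result about them. The values are given without a test, since the difference also holds the contrast in which the 5 were called. The pair of log2 fold changes, BAE then BCE, was 1.46 and 0.55 for ETS2, 1.47 and 0.49 for ICAM1, 0.99 and 0.63 for STAT3, 0.92 and 0.37 for TMEM204, and 1.60 and 0.36 for ARRDC3. With LIF, the log2 fold change of BCE against BAE cells was 0.38 for ETS2 and 0.37 for TMEM204, -0.01 for STAT3, and -0.37 for ICAM1 and -0.43 for ARRDC3, beside the 0.15 of MT2. The choice of the 5 rests on 1 library. Without vehicle-treated BAE replicate 1 the 5 nearest were the same genes, at 0.16 to 0.26, and without replicate 2 only STAT3 and ICAM1 remained among the 5 nearest, which then lay at 0.13 to 0.20. Likeness over 8 libraries from 4 groups is a description and carries no test.

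**Figure D4:**
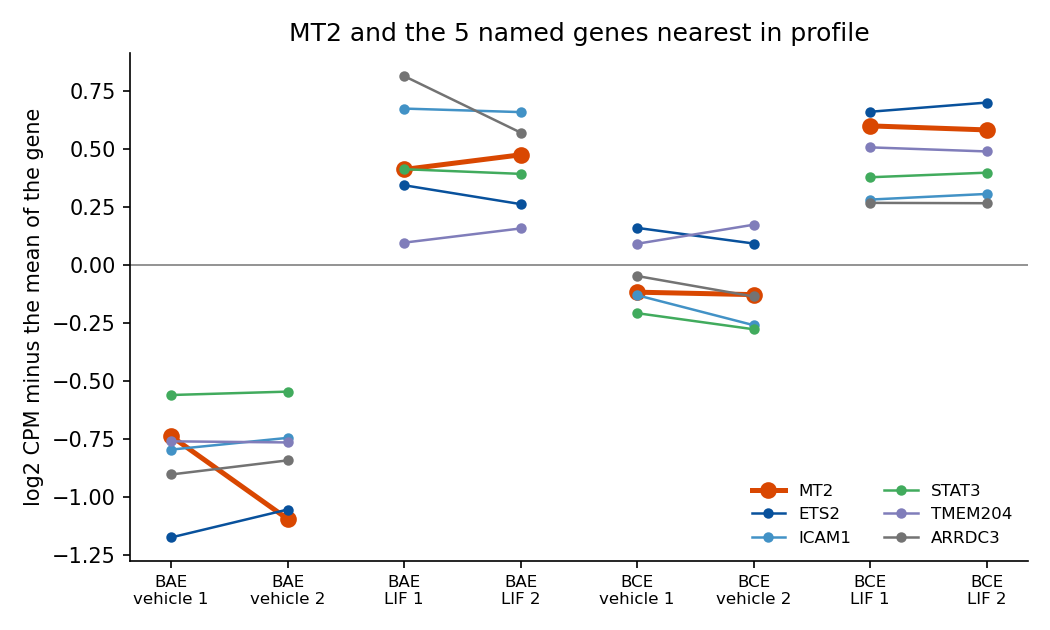
Log2 CPM of MT2 and of the 5 nearest named genes, each centred on its own mean, in the 8 libraries, with lines joining the 2 libraries of a group. Each gene is lowest in vehicle-treated BAE cells, as is MT2, for likeness to which the 5 were picked. MT2 lies at -0.74 and -1.09 in the vehicle-treated BAE libraries, farther apart there than any of the 5 others.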

How the data were processed

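The authors aligned paired-end reads to Bos_taurus_UMD_3.1 with TopHat2 (version 2.0.12, Bowtie2 2.2.3), counted them per gene with HTSeq (0.6.1) and deposited raw counts without normalization. Gene names came from the Swiss-Prot text of their table of genes called in BCE cells and from a supplementary sheet. That table's group means, fold changes and p-values (DESeq 1.18.0) were not used. A second file, named for BAE cells, is byte for byte the same table and was left out.

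Counts were analysed in R (4.3.3) with edgeR (4.0.16): filterByExpr (minimum count 10, total 15), TMM, the quasi-likelihood test fitted on all genes of the 4 libraries compared, Benjamini-Hochberg adjustment and a threshold of 0.05. The interaction used all 8. Standard errors of edgeR were derived from each log2 fold change and F statistic, in which a gene's spread is drawn toward that of other genes. The prior count of profiles on the log2 CPM scale was 2. Totals of 18600598 to 35269335 counts give MT2 a counting error under 1%. Alternatives were DESeq2 size factors, library totals without TMM, the DESeq2 test (1.42.0), no filter, at least 10 counts in every library, a replicate block, one fit of all 8 libraries, each library left out, and, for profiles, a prior count of 0.5.

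MT2 and the gene lists were chosen with earlier results of these data known. Named were MT2, listed genes called in BAE cells (up to 3 largest per direction and list) and the 5 nearest named profiles. STAT3, JUNB and OSMR, already members of the pathway list, were named in the text after their values were seen. Some listed genes are not reported here. Gene lengths and sequences were not used here.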

Additional observations from a re-analysis of the deposited data

How the results depend on the processing

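The rise of MT2 in BAE cells and its higher level in vehicle-treated BCE cells kept their direction and stayed past the threshold in all 11 alternatives each, with log2 fold changes from 1.21 to 1.57 (highest adjusted p 8.93e-07 in edgeR or DESeq2) and from 0.60 to 0.96 (highest adjusted p 5e-05). The difference between LIF-treated BCE and BAE cells stayed positive in its 11 alternatives and lost its call in 1 of them, all 8 libraries in one fit, with a log2 fold change of 0.147 and an adjusted p of 0.112 in edgeR. All alternatives of the 2 comparisons between cell types use BCE libraries that also served to choose MT2. With a library left out, a group holds 1 library, which is assumed to vary like the others. The count of genes called after LIF in BAE cells, 2889, was 1920 with the DESeq2 test and ranged from 1807 (without LIF-treated BAE replicate 1) to 2905 with a library left out. The cause was not tested. Of the 10 listed genes with an identifier other than MT2, 9 were called in BAE cells with edgeR and 8 with the DESeq2 test. Over all genes tested with edgeR, 13.6% were called higher and 8.55% lower. All 10 came from the list of genes called in BCE cells, so all genes are not a like background for them. The 5 nearest named profiles were the same genes in the 3 alternatives of filter and prior count. With either vehicle-treated BAE library left out, an alternative added after seeing the data, between 2 and 5 of the 5 remained.

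With the replicate number of the labels as a block, MT2 rose by 1.39 in BAE cells and 0.71 in BCE cells, was higher in BCE cells by 0.79 with vehicle and 0.15 with LIF, and 2887 genes were called in BAE cells. No call on MT2 changed. Deviations of same-numbered libraries correlated at 0.233 in BCE and -0.142 in BAE cells over 9223 genes, and the numbers were not taken as pairs. The deposited columns carry other numbers than the labels' replicates, so that replicate 1 joins differently numbered libraries, while replicate 2 carries the same number in all 4 groups. With crossed numbers, a block added after seeing the data, 3673 genes were called in BAE cells. Summing all metallothionein genes was not run, since MT2 was the 1 with an identifier. The precision of MT2 is limited by 2 libraries per group more than by depth.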
